A study of Mus musculus with 6 samples.

Results

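The Hox cluster genes were read from the arrays as every non-control probe whose gene name in the files is one of 38 listed Hox symbols, which gave 43 probes of the 39429 on the array (38 of 29608 named genes). Hoxa3, Hoxa9, Hoxa13, Hoxb3 and Hoxd11 had 2 probes each and the other 33 genes had 1. The samples were brain tissue of male mice on the C57BL/6N background: 3 arrays of Pla2g2e-/- mice (knockout 1 to 3) and 3 of wild-type mice (wild type 1 to 3). Pla2g2e encodes a secreted phospholipase A2. All 6 samples are titled as sham-operated, but their treatment text speaks of a transient ischemia by arterial occlusion, and the labels do not settle which holds. Age, brain region and the design of the deletion are not in the labels. Nor do they state whether each sample is an animal of its own, and the p-values therefore cover the spread among these 6 arrays, part of which may be technical.

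Hox genes encode homeodomain transcription factors that give cells along the body axis their position. They lie in clusters, and their order within a cluster follows the order of their expression from hindbrain (low paralog groups) to tail (high groups). In the developing brain they are active in the hindbrain and spinal cord and silent in the forebrain and midbrain, where Polycomb complexes keep their chromatin closed, and part of the hindbrain and spinal cord pattern persists in the adult. The question here is which of them gave a signal in this brain tissue, and whether knockout and wild type differed.

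Values are log2 signals relative to the array's own 75th percentile over non-control probes, called relative log2 signal below, so that a lower number is a dimmer probe. A spot is called well above background by the flag that the extraction software set. The level of a probe depends on its sequence as well as on its target, so levels are compared between arrays and not between probes. Knockout 2 and 3 lay on one slide (the second slide below), and knockout 1 lay with wild type 1, 2 and 3 on the other (the first slide). Between 81.5% and 84.8% of all probes were well above background on an array, and correlations between arrays over probes were at least 0.991. The second-slide arrays stood apart in 2 quality measures: 245 spots of knockout 2 and 428 of knockout 3 were marked as non-uniform, while knockout 1 and each wild-type array had no more than 2, and the brightest of the 153 negative control spots read 8.08 and 6.34, against 1.33 on knockout 1 and 1.30 to 1.35 on the wild-type arrays. None of the Hox probes was lost to a spot flag. Of the 2 Pla2g2e probes on chromosome 4, the probe at 138438659 read -7.07, -7.87 and -7.83 in knockout 1, 2 and 3, against -7.09, -7.26 and -6.67 in wild type 1, 2 and 3, so knockout 1 lay within the wild-type range. The probe at 138438368 read -8.42, -8.44 and -8.38 in knockout 1, 2 and 3, against -8.50, -8.59 and -9.15 in wild type 1, 2 and 3, with every knockout array above every wild-type array, and was well above background on 3 knockout and 2 wild-type arrays. Since the deleted stretch is not known here, neither probe checks the genotype.

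The probe sequences are shown here because the results turn on single probes and on their base composition. Each is the probe as the files give it, 5′ to 3′, with the mm9 position; runs of at least 5 purines (A or G) are in capitals.
Hoxc10, chr15:102801857-102801916, plus strand, 70% purine: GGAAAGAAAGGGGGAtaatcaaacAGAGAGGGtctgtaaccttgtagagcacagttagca
Hoxa13 probe 1, chr6:52208856-52208915, minus strand, 68.3% purine: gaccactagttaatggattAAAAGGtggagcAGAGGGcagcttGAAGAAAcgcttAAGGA
Hoxa13 probe 2, chr6:52208980-52209039, minus strand, 60.0% purine: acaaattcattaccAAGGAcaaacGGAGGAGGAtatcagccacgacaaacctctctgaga
Hoxd10, chr2:74532280-74532339, plus strand, 56.7% purine: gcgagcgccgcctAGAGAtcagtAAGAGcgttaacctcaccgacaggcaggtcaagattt
Hoxa6, chr6:52158194-52158253, minus strand, 56.7% purine: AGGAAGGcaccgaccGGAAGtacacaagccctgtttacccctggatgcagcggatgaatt
Hoxc4, chr15:102867213-102867272, plus strand, 56.7% purine: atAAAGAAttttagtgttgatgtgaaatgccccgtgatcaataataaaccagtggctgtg
Hoxb4, chr11:96182885-96182944, plus strand, 53.3% purine: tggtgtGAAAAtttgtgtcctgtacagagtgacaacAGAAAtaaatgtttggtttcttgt
Hoxa3 probe 1, chr6:52119087-52119146, minus strand, 46.7% purine: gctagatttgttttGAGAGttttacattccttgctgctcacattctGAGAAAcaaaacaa
Hoxb7, chr11:96151211-96151270, plus strand, 40% purine: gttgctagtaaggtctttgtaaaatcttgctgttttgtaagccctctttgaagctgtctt
Hoxa4, chr6:52140287-52140346, minus strand, 35.0% purine: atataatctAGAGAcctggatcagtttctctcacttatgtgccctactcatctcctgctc
Among all 43 Hox probes the purine share ran from 35.0% to 70% with a median of 55.0%, against a median of 50% over all 39429 probes. The accessions listed for 42 of the 43 probes name at least 1 gene of the RefSeq table of GRCm38.p6; the exception is the second probe of Hoxa3. The accessions of Hoxb3 probe 1 name Hoxd3 as well as Hoxb3, so its signal cannot be assigned to either gene alone. Which exon lies under each probe was not analysed here.

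Most Hox genes gave little or no signal. Of the 43 probes, 13 were well above background on all 6 arrays (30.2%, against 77.3% of all probes) and 17 on none (39.5%, against 11.5%). By gene, 12 had a probe above background on all 6 arrays, 12 on 1 to 5 arrays and 14 on none. The Hoxa cluster on chromosome 6 had 5 of 10 genes on all 6 arrays, the Hoxb cluster on chromosome 11 had 4 of 10, the Hoxc cluster on chromosome 15 had 3 of 9 and the Hoxd cluster on chromosome 2 had 0 of 9. These gene counts take probes by the gene name in the files, and so give Hoxb3 probe 1, above background on all 6 arrays, to Hoxb3, although Hoxd3 may share its signal. With that probe set aside (chosen after seeing the data), 11 genes were on all 6 arrays, 12 on 1 to 5 and 15 on none, and the Hoxb cluster had 3 of 10 on all 6. Probe counts depend on how strict the flag is: with the software's less strict flag of a significant positive signal, 25 probes passed on all 6 arrays in place of 13.

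The genes with signal were not confined to the low paralog groups. Of groups 1 to 4, which pattern the hindbrain, 3 of 11 genes (Hoxa4, Hoxb4 and, through the probe it may share with Hoxd3, Hoxb3) were above background on all 6 arrays and 3 on none. Without that probe these were 2 and 4. Of groups 5 to 8, 4 of 11 (Hoxa6, Hoxa7, Hoxb6, Hoxc5) were on all 6 and 2 on none. Of groups 9 to 13, which pattern the lower trunk, limbs and tail, 5 of 16 (Hoxa9, Hoxa13, Hoxb9, Hoxc10, Hoxc12) were on all 6 and 9 on none. The 14 genes with no probe of their own name above background on any array were Hoxa5, Hoxa10, Hoxa11, Hoxb1, Hoxb2, Hoxb13, Hoxc9, Hoxc11, Hoxc13, Hoxd3, Hoxd8, Hoxd9, Hoxd12 and Hoxd13, where Hoxd3 leaves aside the probe it may share with Hoxb3. A dim probe may be above background through weak binding of other transcripts, and this was not tested. In bulk tissue, fewer cells of a type and less RNA per cell cannot be told apart.

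**Figure D1:**
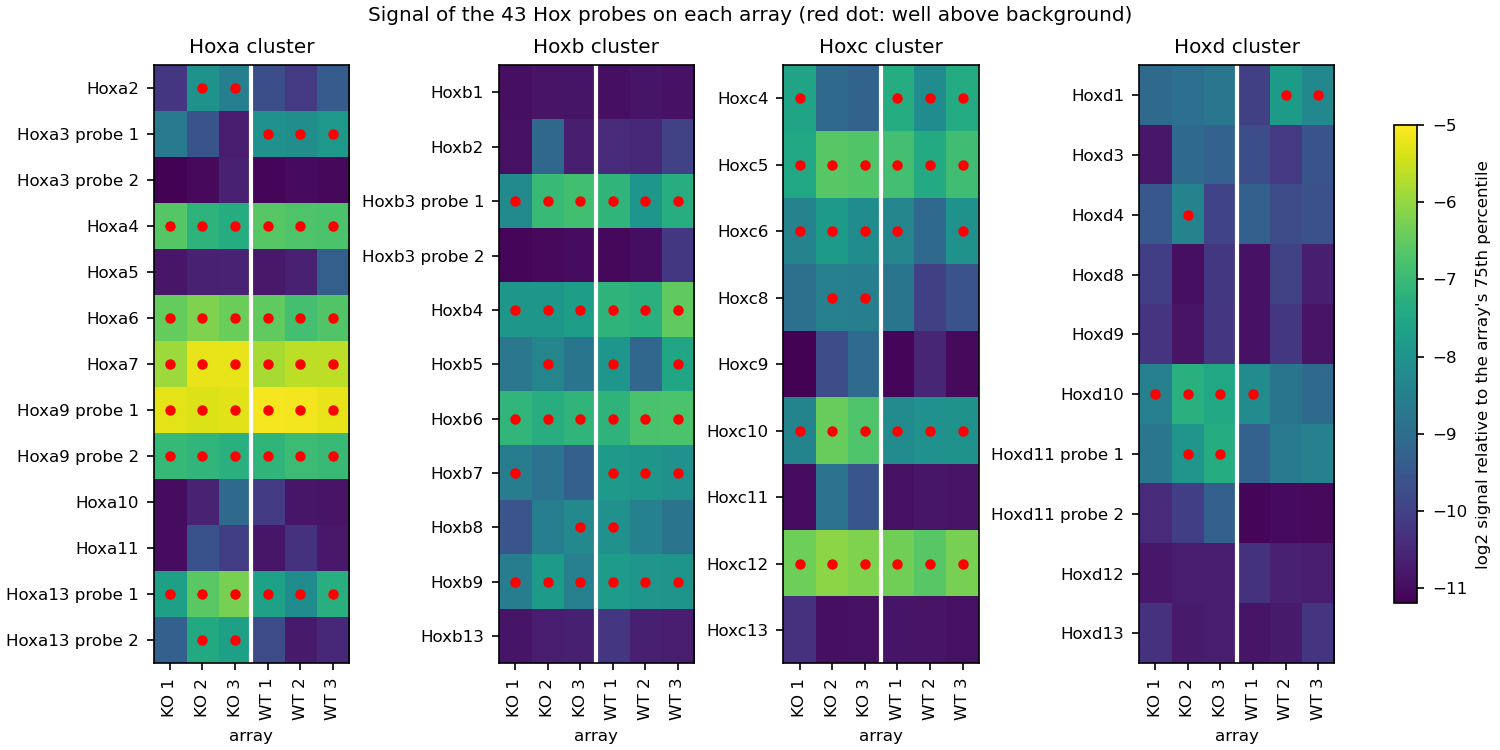
Relative log2 signal (colour) of the 43 Hox probes in cluster order, one row per probe, on the 3 knockout arrays (KO, left of the white line) and the 3 wild-type arrays (WT, right of it), with a red dot where the probe was well above background. Colours compare arrays within a row. The Hoxd panel has no row with 6 dots, and 13 rows of the other panels do.

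The 18 Hox genes that are not described array by array below include those 14 and Hoxb5, Hoxb8, Hoxc6 and Hoxd4. Over the 6 arrays their probes ranged from -11.15 to -7.52 with a median of -10.51, beside negative control medians of -11.06 to -10.93 on the knockout arrays and -11.01 to -10.91 on the wild-type arrays. Hoxb5 was above background on 1 knockout and 2 wild-type arrays, Hoxb8 on 1 of each, Hoxd4 on 1 knockout array and 0 wild-type arrays, and Hoxc6 on 3 knockout and 2 wild-type arrays. Hoxc6, active in the brachial cord, differed by 0.36 ± 0.29 (SE; limma's adjusted p = 0.645), with overlapping groups.

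RefSeq promoters (GRCm38.p6, 250 bases before to 50 after the start) were at hand for 22 of the 38 genes, 24 promoters in all. They held a median of 14.5 CG dinucleotides, against 7 over 32851 promoters, and 17 of the 24 held at least 10, against 43.5% of all. Signal on the array did not go with this count: the median was 14 for the 5 promoters of genes above background on all 6 arrays, 13 for the 9 of genes on 1 to 5 arrays and 17.5 for the 10 of genes on none. The sequence TGATNNAT, the core at which Hox and Pbx proteins bind together, was found on either strand in 4 of the 24 promoters (Hoxa2, Hoxb1, Hoxb8 and 1 of the 2 of Hoxd11), against 8.85% of all promoters. No other motif was searched.

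Knockout and wild type did not differ past the threshold in any Hox probe. A probe entered the test if all 3 arrays of knockout, or all 3 of wild type, were well above background, which left 18 Hox probes of 17 genes. With limma and a Benjamini-Hochberg adjustment over 31954 probes, 0 of these 18 passed (smallest adjusted p = 0.242), and 0% of all tested probes did. At an unadjusted p under 0.05, 2 Hox probes were higher in knockout (Hoxa6 and Hoxd10), against 3.05% of all tested probes, and 3 were lower (Hoxa3, Hoxb4 and Hoxb7), against 9.06%. The 5 make up 27.8% of the tested Hox probes. Of the tested probes as dim as these (8508 probes with a mean at or below the highest Hox mean of -5.21), 22.4% had an unadjusted p under 0.05, beside the 5 of 18 Hox probes. The groups did not overlap in 1 Hox probe higher in knockout (Hoxa6, 7.33% of all tested probes) and in 4 lower (Hoxa3, Hoxa9 probe 1, Hoxb4 and Hoxb7, 12% of all). These 5 of 18 in either direction stand beside 19.4% of all tested probes and 23.3% of the equally dim ones. The median difference was -0.01 over the 18 Hox probes and -0.01 over all tested probes. Of the 18, 5 (Hoxa3, Hoxb7, Hoxc4, Hoxc6 and Hoxd10) were tested only because 1 group was above background throughout, so a difference in the direction of that group was built into their selection. Of the 13 on all 6 arrays, 7 were higher and 6 lower in knockout, from -0.87 (Hoxb4) to 0.92 (Hoxc10).

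**Figure D2:**
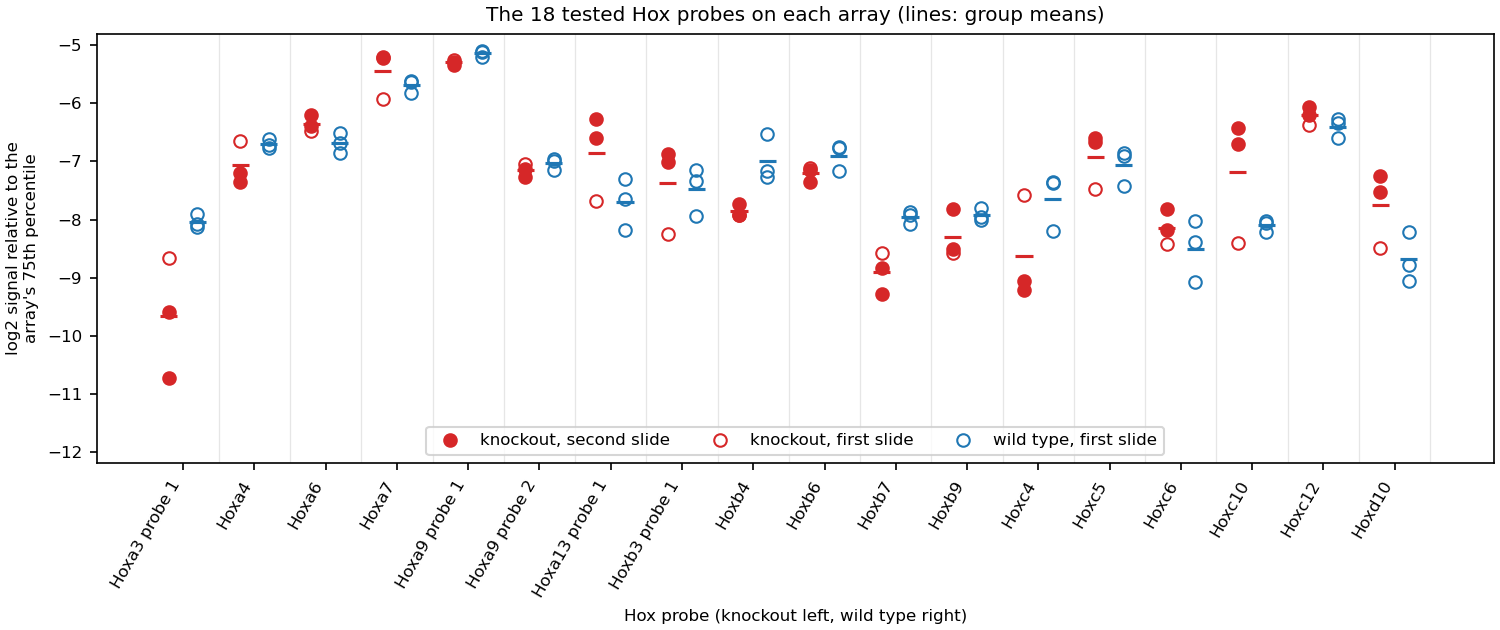
Relative log2 signal of the 18 tested Hox probes on each array, knockout left and wild type right for each probe, with filled points for the second slide and open points for the first. Lines are group means (n = 3 each). In Hoxb4 all knockout points lie below all wild-type points, while in Hoxc10, Hoxa13 and Hoxc4 the open knockout point lies with the wild types.

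Among the genes of paralog groups 1 to 4, Hoxb4 and Hoxa3 read lower on every knockout array than on any wild-type array, though neither passed the test. Hoxb4, which acts in the caudal hindbrain and in blood stem cells, read -7.93, -7.92 and -7.73 in knockout 1, 2 and 3, against -7.17, -7.26 and -6.52 in wild type 1, 2 and 3. The means were -7.86 ± 0.11 in knockout and -6.99 ± 0.40 in wild type (SD, n = 3 each), every knockout array lay below every wild-type array, and the difference of -0.87 ± 0.20 (SE) had an unadjusted p of 0.00526 and an adjusted p of 0.276 in limma's test. On the slide that holds both genotypes, knockout 1 lay 0.94 below the wild-type mean (log2 difference -0.94), and normexp background correction shrank the difference to -0.25.

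Hoxa3, needed for thymus and parathyroid formation, failed the flag on all 3 knockout arrays. Its first probe read -8.67, -9.60 and -10.72 in knockout 1, 2 and 3, against -8.07, -8.14 and -7.91 in wild type 1, 2 and 3. It was well above background on 0 of 3 knockout arrays and on all 3 wild-type arrays, so the knockout had no accepted signal. Each knockout array was set to the higher of the probe itself and the dimmest signal that the flag accepted there. This gave a signal 1.64-fold lower in knockout. It is no firm bound, since knockout 1 failed the flag at -8.67 although the flag accepted signals down to -8.93 on that array. The measured difference was -1.62 ± 0.49 (SE; limma's unadjusted p = 0.0163, adjusted p = 0.327). It was -0.63 on the slide with both genotypes, where knockout 1 read above the other knockouts, and -0.16 with normexp, so its size rests on knockout 2 and 3 and on the background correction. Its second probe, which matched no RefSeq accession, was above background on no array and read -11.15 to -10.63 in knockout and -11.12 to -11.02 in wild type.

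Hoxa4, of the cervical region, read -6.64, -7.19 and -7.35 in knockout 1, 2 and 3, against -6.61, -6.71 and -6.77 in wild type 1, 2 and 3. Hoxc4 read -7.58, -9.07 and -9.22 in knockout 1, 2 and 3, against -7.35, -8.20 and -7.38 in wild type 1, 2 and 3. In both genes knockout 1 lay within the wild-type range and knockout 2 and 3 below it. The differences were -0.37 ± 0.19 for Hoxa4 and -0.98 ± 0.49 for Hoxc4 (SE; limma's adjusted p = 0.478 and 0.465), and both changed sign on the slide with both genotypes, to 0.05 and 0.06.

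The probe that lists Hoxb3 and Hoxd3, whose products act in hindbrain segments and the pharyngeal arches, read -8.26, -7.01 and -6.87 in knockout 1, 2 and 3, against -7.15, -7.94 and -7.33 in wild type 1, 2 and 3. Knockout 1 was the dimmest and knockout 2 and 3 the brightest of the 6 arrays, and the difference was 0.10 ± 0.41 (SE; limma's adjusted p = 0.938). The other probe of Hoxb3 and that of Hoxd3 were above background on no array. Hoxa2, which specifies the second pharyngeal arch and hindbrain segments, read -10.21, -8.03 and -8.53 in knockout 1, 2 and 3, against -9.71, -10.15 and -9.39 in wild type 1, 2 and 3, and was above background only on knockout 2 and 3. Hoxd1, known for its role in nociceptive sensory neurons, read -9.06, -8.94 and -8.77 in knockout 1, 2 and 3, against -10.02, -7.81 and -8.31 in wild type 1, 2 and 3, and was above background only on wild type 2 and 3. Neither Hoxa2 nor Hoxd1 was tested.

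In paralog groups 5 to 8, Hoxb7 and Hoxa6 had groups that did not overlap. Hoxb7, which acts in the trunk, read -8.57, -8.83 and -9.29 in knockout 1, 2 and 3, against -7.86, -7.92 and -8.07 in wild type 1, 2 and 3. It was well above background on knockout 1 and on no other knockout array, and on all 3 wild-type arrays. The difference of -0.95 ± 0.19 (SE) had the smallest p among the Hox probes (limma's unadjusted p = 0.00232, adjusted p = 0.242). Hoxb7 was tested only because wild type was above background throughout, which favoured this direction. Among the Hox probes above background on all 6 arrays, Hoxb4 had the smallest p. Knockout 1 lay below all wild-type arrays of its own slide, at a difference of -0.62, and the difference was -0.43 with the purine share of the probes regressed out and -0.14 with normexp.

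Hoxa6 read -6.47, -6.20 and -6.38 in knockout 1, 2 and 3, against -6.51, -6.85 and -6.69 in wild type 1, 2 and 3. It was higher by 0.33 ± 0.12 (SE; limma's unadjusted p = 0.0311, adjusted p = 0.376), with knockout 1 just above wild type 1. Its neighbour Hoxa7 read -5.92, -5.22 and -5.20 in knockout 1, 2 and 3, against -5.82, -5.61 and -5.63 in wild type 1, 2 and 3. Here knockout 1 was the dimmest array and knockout 2 and 3 the brightest, with a difference of 0.24 ± 0.21 (SE; limma's adjusted p = 0.659).

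Hoxb6 read -7.11, -7.35 and -7.15 in knockout 1, 2 and 3, against -7.17, -6.77 and -6.75 in wild type 1, 2 and 3, and the groups overlapped through wild type 1 (-0.30 ± 0.14, SE; limma's adjusted p = 0.440). Hoxc5 read -7.48, -6.60 and -6.67 in knockout 1, 2 and 3, against -6.85, -7.42 and -6.91 in wild type 1, 2 and 3, a difference of 0.14 ± 0.28 (SE; limma's adjusted p = 0.860). Hoxc8, which specifies brachial motor neurons, read -8.90, -8.50 and -8.54 in knockout 1, 2 and 3, against -8.79, -10.03 and -9.62 in wild type 1, 2 and 3. It was above background on knockout 2 and 3 and on no other array, and was not tested.

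In paralog groups 9 to 13, Hoxc10, Hoxd10 and Hoxa13 probe 1 read higher on knockout 2 and 3 than on any other array, with knockout 1 within or below the wild-type range. Hoxc10, which specifies lumbar motor neurons, read -8.41, -6.43 and -6.70 in knockout 1, 2 and 3, against -8.21, -8.06 and -8.02 in wild type 1, 2 and 3. The difference of 0.92 ± 0.51 (SE, limma's adjusted p = 0.509) was -0.31 on the slide with both genotypes and 1.53 without knockout 1 (limma's adjusted p = 0.0135). The last value sets knockout arrays of the second slide against wild types of the first, so it cannot tell genotype from slide. Hoxd10, of the same region of the cord, read -8.50, -7.25 and -7.52 in knockout 1, 2 and 3, against -8.21, -8.79 and -9.07 in wild type 1, 2 and 3. Knockout 1 lay within the wild-type range, and the difference was 0.93 ± 0.37 (SE; limma's unadjusted p = 0.0473, adjusted p = 0.410).

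Both probes of Hoxa13, needed for digits and the urogenital tract, were brightest on knockout 2 and 3. Probe 1 read -7.68, -6.59 and -6.27 in knockout 1, 2 and 3, against -7.64, -8.18 and -7.29 in wild type 1, 2 and 3 (0.86 ± 0.41, SE; limma's adjusted p = 0.455). Probe 2 read -9.29, -7.43 and -7.68 in knockout 1, 2 and 3, against -9.79, -10.76 and -10.50 in wild type 1, 2 and 3, and was above background on knockout 2 and 3 and on no other array, although knockout 1 also lay above every wild type. Hoxd11, which acts in forelimb and kidney, was likewise brightest on knockout 2 and 3. Its first probe read -8.75, -7.96 and -7.36 in knockout 1, 2 and 3, against -9.25, -8.66 and -8.51 in wild type 1, 2 and 3. It was above background only on knockout 2 and 3, while its second probe was on no array, at -10.44, -10.04 and -9.29 in knockout 1, 2 and 3, against -11.12, -11.02 and -11.05 in wild type 1, 2 and 3.

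Hoxa9, active in blood stem cells, gave small negative differences on both of its probes. Probe 1 read -5.25, -5.34 and -5.28 in knockout 1, 2 and 3, against -5.09, -5.11 and -5.20 in wild type 1, 2 and 3, and probe 2 read -7.05, -7.13 and -7.28 in knockout 1, 2 and 3, against -7.14, -6.95 and -7.00 in wild type 1, 2 and 3. The differences were -0.16 ± 0.07 and -0.12 ± 0.09 (SE; limma's adjusted p = 0.421 and 0.617). The sign depends on the scaling: probe 1 read 0.03 after quantile normalization and probe 2 read 0.02 after median centring. Hoxb9, of the thoracic region, read -8.57, -7.81 and -8.51 in knockout 1, 2 and 3, against -7.81, -7.96 and -8.00 in wild type 1, 2 and 3 (-0.38 ± 0.21, SE; limma's adjusted p = 0.512). Hoxc12 read -6.36, -6.07 and -6.19 in knockout 1, 2 and 3, against -6.33, -6.60 and -6.26 in wild type 1, 2 and 3 (0.19 ± 0.12, SE; limma's adjusted p = 0.561). In both the groups overlapped.

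**Figure D3:**
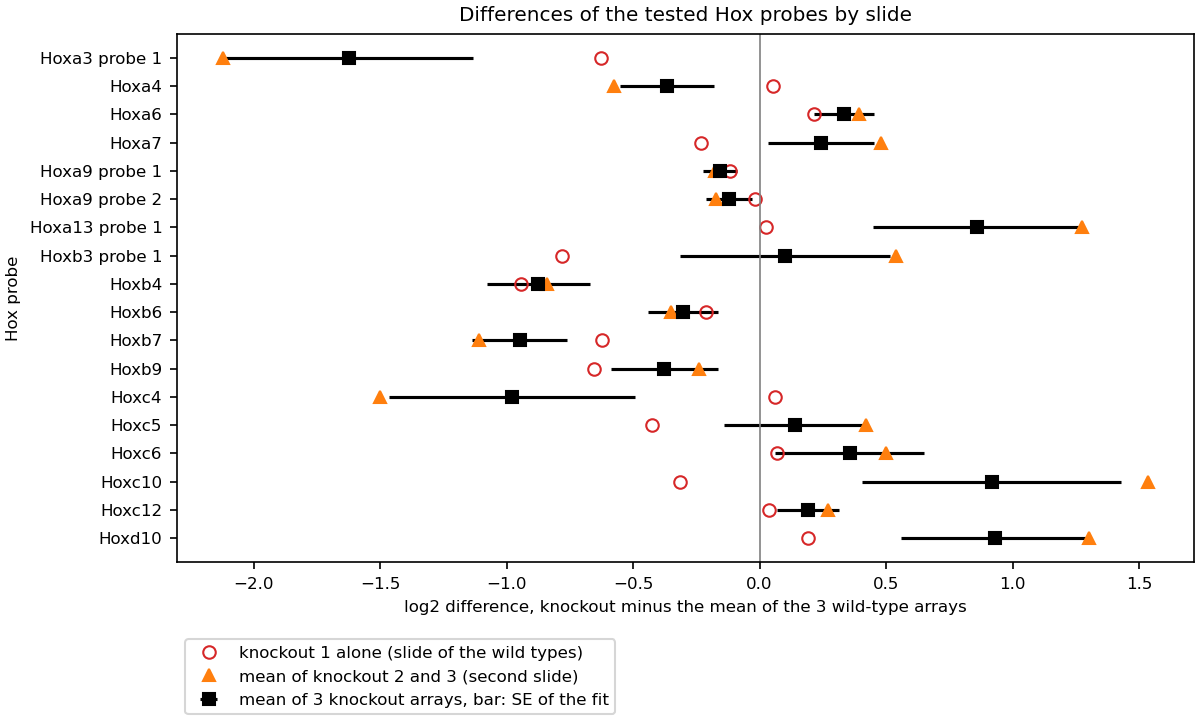
Log2 difference from the mean of the 3 wild-type arrays for the 18 tested Hox probes: squares for the mean of the 3 knockout arrays with the SE of the fit, open circles for knockout 1 alone and triangles for the mean of knockout 2 and 3. Hoxa3 probe 1, both probes of Hoxa9, Hoxb4, Hoxb6, Hoxb7 and Hoxb9 lie left of 0 by all 3 measures. Hoxa6, Hoxa13 probe 1, Hoxc6, Hoxc12 and Hoxd10 lie right of 0 by all 3. In the other 6 of the 18 probes the circle and the triangle lie on opposite sides of 0.

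Knockout 2 and 3 stood apart from knockout 1 in these probes, and slide and array cannot be told apart in this, since knockout 1 is the 1 knockout array on its slide. In 12 of the 18 tested probes knockout 1 and the mean of knockout 2 and 3 lay on the same side of the wild-type mean, and in the other 6 (Hoxa4, Hoxa7, Hoxb3, Hoxc4, Hoxc5 and Hoxc10) on opposite sides. With genotype and slide in 1 model, the second slide minus the first within knockout had an unadjusted p under 0.05 in 6 Hox probes with a higher signal on the second slide (4.19% of all tested probes) and in 3 with a lower one (2.68%). The 6 were Hoxa7, Hoxa13 probe 1, Hoxb3 probe 1, Hoxc5, Hoxc10 and Hoxd10, and the 3 were Hoxa3, Hoxa4 and Hoxc4. These 9 make up 50% of the tested Hox probes, against 6.87% of all tested probes and 20.9% of the dim ones. None passed after adjustment (0% of all; smallest adjusted p = 0.0831 in limma's test, Hoxc10), and the fit rests on knockout 1 alone for its first-slide knockout value. Over all 43 probes, knockout 2 and 3 both lay above all 4 arrays of the first slide in 17 (17.9% of all probes) and below them in 5 (12% of all probes).

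The slide difference went with the base composition of the probe. Among the 8508 dim tested probes its median was -0.30 (interquartile range -0.55 to -0.11) in the 1219 probes with at most 40% purine, 0.61 (0.30 to 1.06) in the 1093 probes over 60% and up to 70%, and 1.21 in the 69 probes over 70%. Hox probes followed the same order: the 13 with at most 50% purine had a median of -0.14, the 24 over 50% and up to 60% had 0.27, and the 6 over 60% had 1.28 with all 6 above 0. These Hox bins hold all 43 probes, of which 25 were not tested, while the dim probes were all tested. The negative control median was also higher on knockout 2 and 3 (-10.94 and -10.93) than on knockout 1 (-11.06). Its part in the Hox medians was not tested. Across probes, purine share and slide difference correlated with r = 0.57 (rho 0.63) over the 18 tested Hox probes, r = 0.57 (rho 0.62) over all 43, and r = 0.59 over the dim probes. These are correlations across probes that share the same 6 arrays, and probes are not independent replicates. Knockout 1 minus the wild-type mean, within the first slide, gave r = 0.04, -0.11 and -0.02 in the same 3 sets. Hoxc4 (56.7% purine, slide difference -1.56) and Hoxa3 probe 1 (46.7%, -1.49) lay farthest below the order. With the purine share regressed out of each array, the knockout difference was 0.36 for Hoxc10, 0.35 for Hoxa13 probe 1 and 0.66 for Hoxd10, while Hoxb4 stayed at -0.93; 0 Hox probes were then higher at an unadjusted p under 0.05 and 4 were lower.

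**Figure D4:**
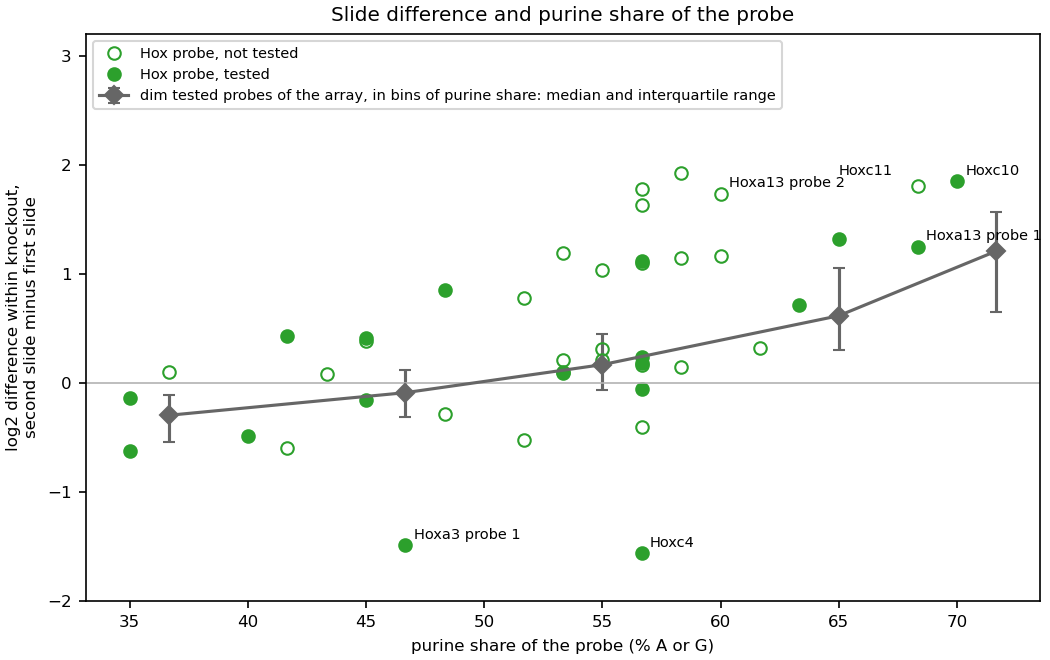
Difference between the second and the first slide within knockout (log2, mean of knockout 2 and 3 minus knockout 1) against the purine share of the probe, for the 43 Hox probes (filled where tested) and for the 8508 dim tested probes in 5 bins (median, interquartile range, plotted at the bin's median purine share). Both the Hox points and the bin medians lie higher at a higher purine share.

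Genes that work with or around the Hox genes gave far more signal. All 9 measured Hox cofactors (Pbx, Meis and Pknox genes, whose products bind DNA together with Hox proteins) were above background on all 6 arrays, with 0 called and 0 at an unadjusted p under 0.05. Pbx2 differed by -0.10 ± 0.11 and Pbx3 by -0.30 ± 0.14 (SE). All 23 Polycomb group genes, which keep Hox chromatin silent, were measured on all 6 arrays. Of these 12 were higher and 11 lower in knockout with a median of 0.00, and Cbx2, chosen after its values were seen, was the 1 gene with an unadjusted p under 0.05 (-0.70 ± 0.16; limma's adjusted p = 0.276). The first of that list, Ezh1, Ezh2 and Eed, differed by 0.03 ± 0.09, -0.25 ± 0.15 and 0.07 ± 0.06 (SE). Of the 9 Trithorax group genes, which keep Hox genes active, 1 was higher (Kmt2a, 0.29 ± 0.09) and 1 lower (Kdm6a, -0.19 ± 0.07, chosen after its values were seen) at an unadjusted p under 0.05, and Kmt2b and Men1 differed by -0.10 ± 0.07 and 0.07 ± 0.08 (SE).

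Retinoic acid induces Hox genes in the embryo. Of the 12 tested genes of its pathway 9 were lower and 3 higher in knockout, 0 were called and 4 had an unadjusted p under 0.05, all lower: the synthesis enzymes Aldh1a1 (-0.42 ± 0.09) and Aldh1a2 (-0.49 ± 0.15), the degrading enzyme Cyp26b1 (-1.31 ± 0.45) and the binding protein Crabp2 (-0.52 ± 0.15; SE, limma's adjusted p 0.253 to 0.367). The last pair was chosen after its values were seen. Aldh1a3 differed by 0.94 ± 0.42 (SE; limma's adjusted p = 0.433). Aldh1a1 read 1.31, 1.38 and 1.30 in knockout 1, 2 and 3, against 1.68, 1.66 and 1.89 in wild type 1, 2 and 3, with knockout 1 among the other knockouts. Wild type 3 was the highest array of this list too, with a summed signal of 21.6 against 14.3 to 15.3 in knockout and 16.1 to 17.7 in the other wild types. Without it the list median was -0.08 in place of -0.38, with 4 genes still at an unadjusted p under 0.05, all lower. Of the 6 hindbrain segmentation regulators 3 were higher and 3 lower, with 0 at an unadjusted p under 0.05; Egr2 differed by 0.71 ± 0.35 (SE). Of the 8 ParaHox, Evx and related homeobox genes 4 were tested, all lower, with 1 at an unadjusted p under 0.05 (Gsx2, -0.77 ± 0.21, chosen after its values were seen). Cdx1 differed by -0.20 ± 0.15 (SE), and Cdx2 and Cdx4, like Pdx1 and Evx1, were above background on no array.

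No marker of a brain region or of a neighbouring cell type passed the threshold, but most markers of several lists read lower in knockout, and their part in the Hox values was not tested. Of 13 tested hindbrain and spinal cord markers 12 were lower and 1 higher in knockout, 6 had an unadjusted p under 0.05 (all lower) and 0 were called. Over all tested probes 9.06% were lower at such a p. Of those 6, Slc6a5 and Slc6a4, named after their values were seen, were above background on 4 arrays. They were tested only because wild type was above background throughout, so their direction was built into their selection. The list median was -0.45. Its summed signal, in multiples of the 75th percentile, was 13.7 to 14.8 in knockout and 8.22 to 13.9 in wild type, so sum and median differ in direction. The neurofilament gene Nefh, named after its values were seen and the 1 gene of the list that read higher in knockout (0.34 ± 0.22, SE; limma's adjusted p = 0.562), made up 96.7% to 97.2% of the sum in knockout and 91.7% to 96% in wild type. Without it the sum was 0.412 to 0.45 in knockout and 0.538 to 0.705 in wild type. Phox2a differed by -0.13 ± 0.22 (SE), and Tlx3 was above background on no array. All 10 forebrain markers were measured on every array, with 6 higher and 4 lower in knockout and 2 at an unadjusted p under 0.05, both higher (Emx2 and Lhx2, of which Lhx2 was chosen after its values were seen), and a sum of 51.8 to 52.9 in knockout and 46.1 to 51.3 in wild type. Emx1 and Emx2, defining genes of the forebrain, differed by -0.08 ± 0.10 and 0.26 ± 0.09 (SE). All 8 tested midbrain markers were lower in knockout (median -0.33, 2 at an unadjusted p under 0.05, sum 0.821 to 0.993 in knockout and 1.05 to 1.39 in wild type), with En2 at -0.35 ± 0.15 and Otx2 at -0.74 ± 0.59 (SE) and En1 and Foxa2 above background on no array. Otx2 also belongs to the choroid plexus list below, so the midbrain and choroid plexus counts share this gene. Of the 8 tested cerebellum markers 7 were lower (median -0.50, 2 at an unadjusted p under 0.05, sum 4.17 to 4.33 in knockout and 3.64 to 7.77 in wild type), with Pcp2 at -0.9965 ± 0.25, Gabra6 (above background on 4 arrays) at -2.76 ± 0.60 and Cbln1 at -0.40 ± 0.62 (SE) and Cbln3 and Atoh1 above background on no array. Gabra6, with an unadjusted p under 0.05, was likewise tested only through wild type.

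Of the non-neuronal lists, 10 of 10 choroid plexus markers (median -0.58, 1 at an unadjusted p under 0.05, sum 8.13 to 14.9 in knockout and 5.16 to 25.4 in wild type), 10 of 10 meninges and fibroblast markers (median -0.44, 2 at an unadjusted p under 0.05, sum 9.15 to 12.7 in knockout and 11.4 to 19.7 in wild type) and 9 of 9 tested blood leukocyte markers (median -0.40, 1 at an unadjusted p under 0.05, sum 4.23 to 6.39 in knockout and 3.32 to 12.8 in wild type) were lower in knockout, and 0 were called. The 1 leukocyte gene at such a p, Cd8a (named after its values were seen), was above background on 4 arrays. It was tested only because 1 group was above background throughout, so a difference was built into its selection. Ttr, Kl and Clic6 of the choroid plexus differed by -0.42 ± 0.67, -0.57 ± 0.49 and -0.76 ± 0.54, Col1a1, Col1a2 and Col3a1 of the meninges by -0.81 ± 0.31, -0.50 ± 0.22 and -0.95 ± 0.26, and S100a8, S100a9 and Ngp of leukocytes by -0.64 ± 0.74, -0.75 ± 0.72 and -0.40 ± 0.74 (SE). Endothelium markers were 6 higher and 4 lower with 0 at an unadjusted p under 0.05 (sum 30.3 to 34.6 in knockout and 28.3 to 32.9 in wild type), Cldn5, Pecam1 and Flt1 differing by 0.15 ± 0.22, -0.06 ± 0.07 and 0.05 ± 0.12 (SE). Wild type 3 was the highest of the 6 arrays in the retinoic acid, choroid plexus, meninges, cerebellum and leukocyte lists, by the median and by the sum. Without it (chosen after seeing the data) the list medians were -0.20 for choroid plexus, with 8 of 10 genes lower and 0 at an unadjusted p under 0.05, -0.24 for meninges, with 10 of 10 lower and 1 at such a p, -0.25 for cerebellum, with 5 of 8 lower, and -0.08 for leukocytes, with 6 of 9 lower. The hindbrain and spinal cord list had a median of -0.38 without it, with 12 of 13 lower and 6 at an unadjusted p under 0.05, while the forebrain list then had 5 higher and 5 lower and 0 at such a p. At an unadjusted p under 0.05 there were then 0 higher and 1 lower Trithorax genes, 2 lower Polycomb genes and 3 lower midbrain markers. It was also the highest array for Hoxb4, and without it the Hoxb4 difference was -0.64.

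**Figure D5:**
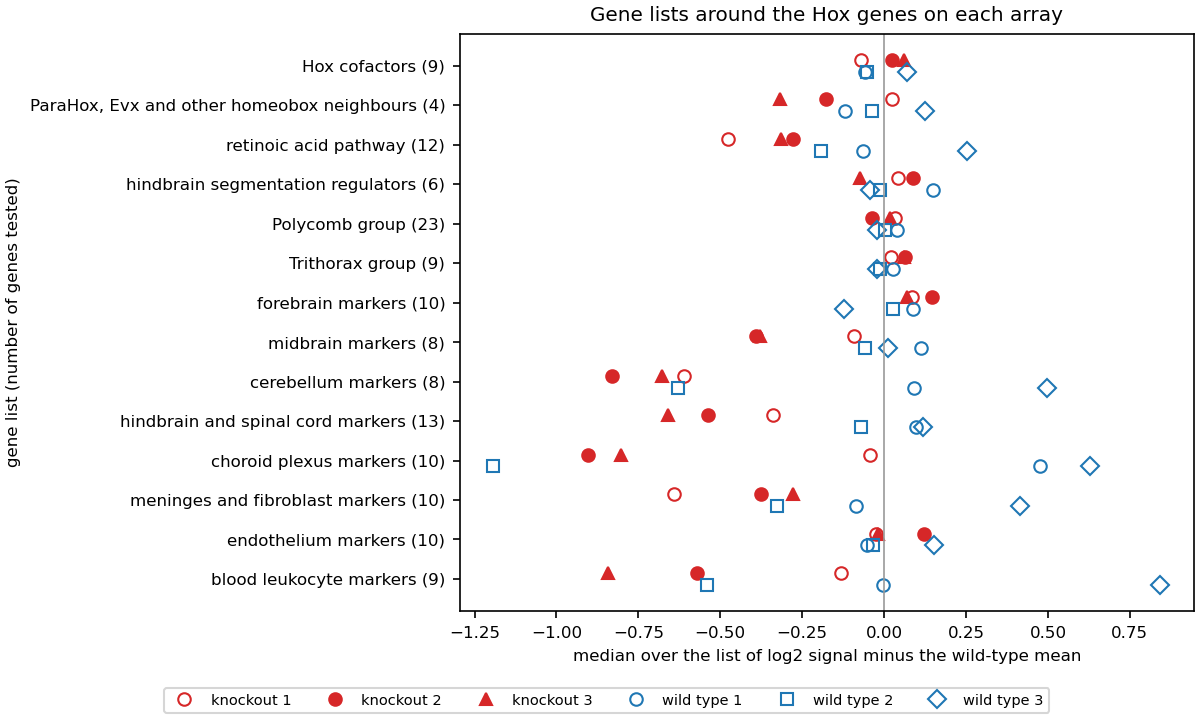
Median over each gene list of the relative log2 signal minus the wild-type mean, for the knockout arrays (red, upper of each pair of rows) and the wild-type arrays (blue, lower). Cofactor, Polycomb and Trithorax lists lie within 0.1 of 0 on every array, while choroid plexus, cerebellum and leukocyte lists spread widely within wild type.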

How the data were processed

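Total RNA of 6 brain samples was labelled with Cy3 and hybridised, each sample alone, to Agilent arrays (design 026655, 1 colour), per the labels' protocols and the file headers. The deposited files hold, per the file headers, spot intensity values extracted with Agilent Feature Extraction 12.1.1.1 on a grid for mm9. The processed signal is a background-subtracted, detrended intensity on a linear scale; mean signal and local background are uncorrected. Well-above-background and outlier flags are other values of 0 or 1 in the deposited files. Groups came from the titles and slides from the file headers. Non-uniform and population-outlier spots were dropped, log2 values of a probe's spots were averaged, and each array's 75th percentile over the 39429 probes was subtracted. Probes entered the test when all 3 arrays of a group were well above background and each group held at least 2 values. limma 3.58.1 (R 4.3.3; lmFit, eBayes, no covariate, two-sided) was fitted over 31954 probes, with Benjamini-Hochberg adjustment and a threshold of 0.05. The fit was tested on simulated data. Where a gene of a list had several tested probes, the one with the highest mean stood for it. Exact tests of single probes were not used, since 3 arrays against 3 cannot give an exact p under 0.1. The number of arrays limits the precision.

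The members, the gene lists (Hox cofactors; ParaHox, Evx and other homeobox genes; retinoic acid pathway; hindbrain segmentation; Polycomb; Trithorax; forebrain, midbrain, cerebellum, hindbrain and spinal cord, choroid plexus, meninges, endothelium and leukocyte markers) and the rule for named genes were chosen with earlier results of these data known. The rule names members with a probe above background on all 6 arrays, with non-overlapping tested groups, or above background on at least 2 more arrays in 1 group, and the first 3 genes of each other list. Some genes that the rule names, and 1 probe sequence, are not reported here. Alternatives in background correction, scaling, filter, flags, slide, replicates, probes per gene and, added after seeing the data, base composition were tried.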

Additional observations from a re-analysis of the deposited data

How the results depend on the processing

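No Hox probe passed the threshold under any alternative except without knockout 1, so leaving out 1 array gave 0 to 3. Without knockout 1, 3 of 22 tested Hox probes passed (Hoxc10 at 1.53, Hoxb7 at -1.11 and Hoxa13 probe 2 at 2.80), and 884 of all 32818 tested probes. All remaining knockout arrays then lie on the second slide and all wild types on the first, so genotype and slide cannot be told apart. Hoxb7 and Hoxa13 probe 2 entered that fit only through the group where they were higher. The 2 probes higher at an unadjusted p under 0.05 became 0 with normexp, with slide as a fixed block, on 1 slide and with purine share regressed out, 1 with the filter on all 6 arrays, and 4 with quantile normalization or median centring (0 to 8 leaving out 1 array). The 3 lower became 1 with the filter on all 6 arrays (3 to 5 leaving out 1 array). The 1 non-overlapping probe that was higher became 0 with normexp or purine share regressed out, 2 with quantile normalization or median centring and 3 with no filter (1 to 12), and the 4 lower became 2 with the filter on all 6 arrays and 9 on 1 slide, where knockout 1 alone stands against the wild types (4 to 7). For these alternatives no share of non-overlapping groups over all tested probes is given. The changed counts therefore cannot be read as particular to Hox probes. Knockout 1 also read below the wild-type mean in the dim tested probes, with medians of -0.18 to -0.11 across the purine bins. On the second slide within knockout, the 6 higher became 14 with no filter (4 to 6 leaving out 1 array), and the 3 lower became 0 with normexp and 1 with the filter on all 6 arrays (3 to 4). The median difference of the tested Hox probes was 0.41 without knockout 1 (-0.13 to 0.41 leaving out 1 array). Leaving out knockout 1 also raised the tested Hox probes from 18 to 22. Hoxa2, Hoxa13 probe 2, Hoxc8 and Hoxd11 probe 1, above background on knockout 2 and 3 only, then entered through the group where they were higher. The counts and the median without knockout 1 are therefore not those of the same probes. Probes above background on all 6 arrays were 25 with the less strict flag (13 to 14 leaving out 1 array).

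Over all tested probes the higher and lower counts at an unadjusted p under 0.05 moved with the scaling: 973 and 2894 in the main setting, 772 and 3070 with normexp, 2332 and 1512 with quantile normalization, and 4210 and 1334 with median centring, which shifted the median of all probes to 0.13 and that of the Hox probes to 0.13. Of 317 alternative values for the 17 named tested probes, 293 kept direction and side of the threshold, 22 changed direction and 2 passed the threshold. The 2 other filters and the replicate block leave each difference as in the main setting by construction, so direction could not change there. No named probe passed in the main setting, so the side kept is that of not passing. With normexp Hoxb3 was -0.036 and Hoxc5 -0.026; with quantile normalization Hoxa9 probe 1 was 0.032; with median centring Hoxa9 probe 2 was 0.022; with purine share regressed out Hoxb3 was -0.31. With slide as a fixed block or on 1 slide, Hoxa4 was 0.053, Hoxa7 -0.23, Hoxb3 -0.78, Hoxc4 0.061, Hoxc5 -0.42 and Hoxc10 -0.31. Leaving out 1 array, Hoxb3 ran from -0.15 to 0.54 and Hoxc5 from -0.041 to 0.42. Normexp with its offset of 50 shrank dim differences, with Hoxb4 at -0.25 and Hoxb7 at -0.14. The causes were not tested.

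Arrays that share a replicate number did not deviate together (correlations -0.04, -0.15 and -0.10). Knockout 2 and 3 lay on another slide than wild type 2 and 3, so these values cannot show whether the numbers mark a pairing. With the replicate block, 0 Hox probes passed, 0 were higher and 4 lower at an unadjusted p under 0.05. Dim signal limits the Hox genes: 25 of 43 probes could not be tested.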

Other observations

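Other transcripts of the Hox clusters on the array, chosen after their values were seen, are given as values. Hoxa11os, the antisense transcript of Hoxa11, was well above background on all 6 arrays at -5.02, -5.16 and -5.01 in knockout 1, 2 and 3, against -5.16, -5.02 and -5.10 in wild type 1, 2 and 3 (difference 0.03 ± 0.08, SE; limma's adjusted p = 0.897). The probe of Hoxa11 itself was above background on none of these arrays, at -11.00 to -9.63 in knockout and -10.82 to -10.29 in wild type. Hoxb5os was above background on 2 knockout and 2 wild-type arrays and read -9.38 to -8.45 in knockout and -9.38 to -8.34 in wild type. The probes of Hoxaas2 and Hoxaas3 and both probes of Hoxd3os1 were above background on 0 arrays. No hypothesis was tested.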
